A study of Rattus norvegicus with 5 samples.

Results

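The genes described here are 54 rat genes of the p53 response and of apoptosis control, in FRT cells grown flat or as follicles. FRT is an epithelial cell line from the thyroid of Fischer rats. The 21 genes of the first group are p53 targets, p53 regulators and inhibitors of the cell cycle, and the 33 of the second are the BCL2 family, the caspases with their partners, and the death receptors with their adaptors. Each was found on the array through the RefSeq accession of its probes, and where several probes read a gene the brightest was used. Of the 54 genes, 53 were measured among 15154 genes in all, and Sesn1 was not analysed here.

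RNA was taken on day 5 from 2D cultures, which are polarized monolayers, and from 3D cultures in Matrigel, a basement membrane extract in which the cells form hollow follicles. On 4 two-colour arrays, 1 of 4 3D replicates was read against a pool of the 2D cultures, and on a dye-swap array the 2D pool was read against a pool of the 3D cultures with the dyes exchanged. All cultures were of this 1 line, and the growth condition is the only labelled difference. Because the 2D side was always the same pool, the spread between 2D cultures entered no value, and the dye-swap array holds no culture beyond those of the other arrays. It is also the only array of pooled 3D RNA, so on it the exchange of dyes and the pooling cannot be told apart. Every value below is a log2 ratio of 3D over 2D, so that 1 unit is a 2-fold difference and a negative value is a lower level in 3D. A gene was called higher or lower where the limma adjusted p over all 15154 genes was under 0.01. The fit counted all arrays as independent. Its standard errors, intervals and p-values therefore make no allowance for the shared pools or for spread between 2D cultures.

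The transcription factor p53 is held low by Mdm2 and Mdm4, and when stress frees it, it switches on genes that stop the cell cycle, such as Cdkn1a, or that drive apoptosis, such as Bax, Bbc3 and Pmaip1. In the mitochondrial route, BH3-only proteins release Bax and Bak1 from the anti-apoptotic BCL2 proteins, cytochrome c leaves the mitochondrion, and Apaf1 with caspase-9 starts the caspase cascade. In the receptor route, Fas and the TNF receptors recruit adaptors that activate caspase-8. In epithelia that form hollow spheres, death of the inner cells is one known way to clear a lumen, and separation of cells without death is another.

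The start regions of 5 genes are shown first, because the data turn on them: Gadd45a and Gadd45b fell most, Casp1 and Cdkn2b rose most, and Cdkn1a, the best known p53 target, was not called. Sequences are from RefSeq on the build GRCr8 and run from 250 bases before the annotated start to 50 after it, 5′ to 3′ in the direction of the gene. Capitals mark matches, on either strand, to the p53 half-site, to CCAAT, to GGGCGG or to TGACGTCA.
Gadd45a, chr4:97486750-97487049, minus strand: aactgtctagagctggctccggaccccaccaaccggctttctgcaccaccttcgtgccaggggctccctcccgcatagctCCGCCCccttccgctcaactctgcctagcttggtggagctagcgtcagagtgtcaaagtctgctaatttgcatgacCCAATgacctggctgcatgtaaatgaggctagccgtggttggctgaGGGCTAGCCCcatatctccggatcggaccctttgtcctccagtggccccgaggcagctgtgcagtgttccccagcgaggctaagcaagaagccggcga
Gadd45b, chr7:9430669-9430968, minus strand: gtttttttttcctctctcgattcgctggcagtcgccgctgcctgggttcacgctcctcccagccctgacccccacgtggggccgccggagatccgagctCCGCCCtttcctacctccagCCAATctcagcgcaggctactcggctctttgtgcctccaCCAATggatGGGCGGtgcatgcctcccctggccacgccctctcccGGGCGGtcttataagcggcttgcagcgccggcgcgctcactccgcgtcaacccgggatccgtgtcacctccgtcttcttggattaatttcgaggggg
Cdkn2b, chr5:109134806-109135105, minus strand: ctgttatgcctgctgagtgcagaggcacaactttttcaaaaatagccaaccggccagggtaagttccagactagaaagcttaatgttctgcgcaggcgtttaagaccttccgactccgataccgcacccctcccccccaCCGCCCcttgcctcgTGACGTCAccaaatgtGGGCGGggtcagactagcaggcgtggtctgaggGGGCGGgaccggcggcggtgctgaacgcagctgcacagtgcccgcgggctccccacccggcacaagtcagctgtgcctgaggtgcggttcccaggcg
Casp1, chr8:10872580-10872879, plus strand: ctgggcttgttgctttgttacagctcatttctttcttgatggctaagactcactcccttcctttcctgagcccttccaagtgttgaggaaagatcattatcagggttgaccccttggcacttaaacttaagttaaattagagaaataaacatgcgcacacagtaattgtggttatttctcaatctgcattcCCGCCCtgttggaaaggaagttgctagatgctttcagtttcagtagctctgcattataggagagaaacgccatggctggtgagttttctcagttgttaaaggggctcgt
Cdkn1a, chr20:7150682-7150981, plus strand: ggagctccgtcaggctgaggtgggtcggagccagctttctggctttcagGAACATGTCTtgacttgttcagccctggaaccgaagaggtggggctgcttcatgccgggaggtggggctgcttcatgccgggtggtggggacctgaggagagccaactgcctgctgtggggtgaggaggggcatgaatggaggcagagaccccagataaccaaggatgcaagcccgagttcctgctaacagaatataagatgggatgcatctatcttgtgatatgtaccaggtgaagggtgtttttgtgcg
The p53 half-site match of Gadd45a began 48 bases before the start and that of Cdkn1a 201 bases before it. Gadd45b held CCAAT at 2 positions and GGGCGG at 3, Cdkn2b held GGGCGG at 3 positions and TGACGTCA at 1, and Casp1 held GGGCGG at 1. Windows were matched for 41 of the 53 genes. Only the first listed window of a gene was used, so any other start of the same gene was not examined. A p53 half-site was found in 6 of the 41 (Cdkn1a, Cdkn2c, Gadd45a, Ccng1, Ei24 and Cflar) and in 7.98% of 33469 rat promoter windows. CCAAT was found in 13 of the 41 and in 37.5% of all windows, GGGCGG in 31 and in 33.1%, and TGACGTCA in 3 (Cdkn2b, Btg2 and Plk2) and in 1.83%. The 33469 windows were not limited to the 15154 genes measured here, so the members and all windows are unlike sets. Of the 10 called-higher genes with a window, 0 held the p53 half-site and 8 held GGGCGG, and of the 8 called-lower genes 3 and 6 did. A match describes the letters in this window only.

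Of the 53 genes, 14 were called higher in 3D and 10 lower, which is 45.3% of them. Over all 15154 genes 25.9% were called, with 14.4% higher and 11.4% lower. Over the 9015 genes that stood well above background in at least 1 condition 43.4% were called, with 24.2% higher and 19.2% lower. Of the 53 genes 50 stood above background, and the 24 calls were 48% of these, near the share of expressed genes in general. Calls of at least 2-fold were 6 (Gadd45a, Gadd45b, Cdkn2b, Casp1, Casp4 and Tnfrsf12a), or 11.3%, against 2.17% of all genes and 3.65% of those above background. The members were chosen with earlier results of these data known, so these shares only describe the list. In 23 of the 24 called genes all 5 arrays had the same sign, and Diablo was the exception. With quantile normalization over all channels, or in the authors' value table, the split was 12 higher and 14 lower. With arrays centred on their median in place of the loess correction, limma called 0 of the 15154 genes, while 28 of the 53 genes had an unadjusted p under 0.05 against 43 with loess.

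The cultures carried epithelial markers and few thyroid ones. All 7 epithelial markers stood above background, and 4 of 8 thyroid markers did, among them Pax8 and Cdh16, which were called higher, while Tg, Tshr, Slc5a5 and Nkx2-1 were not well above background on any array. Of the markers of other cells, 4 of 7 fibroblast genes stood above background with 1 called higher (Pdgfra, 0.55), as did 1 of 4 endothelial genes, 1 of 5 leukocyte genes (Lyz2, called lower, -0.20) and 1 of 4 C cell genes. Their part in the ratios below was not tested. Replicate arrays correlated with each other at r = 0.87 to 0.95 over genes, and with the dye-swap array, its sign turned, at 0.73 to 0.76. In bulk RNA, fewer cells carrying a transcript and less of it per cell cannot be told apart.

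**Figure D1:**
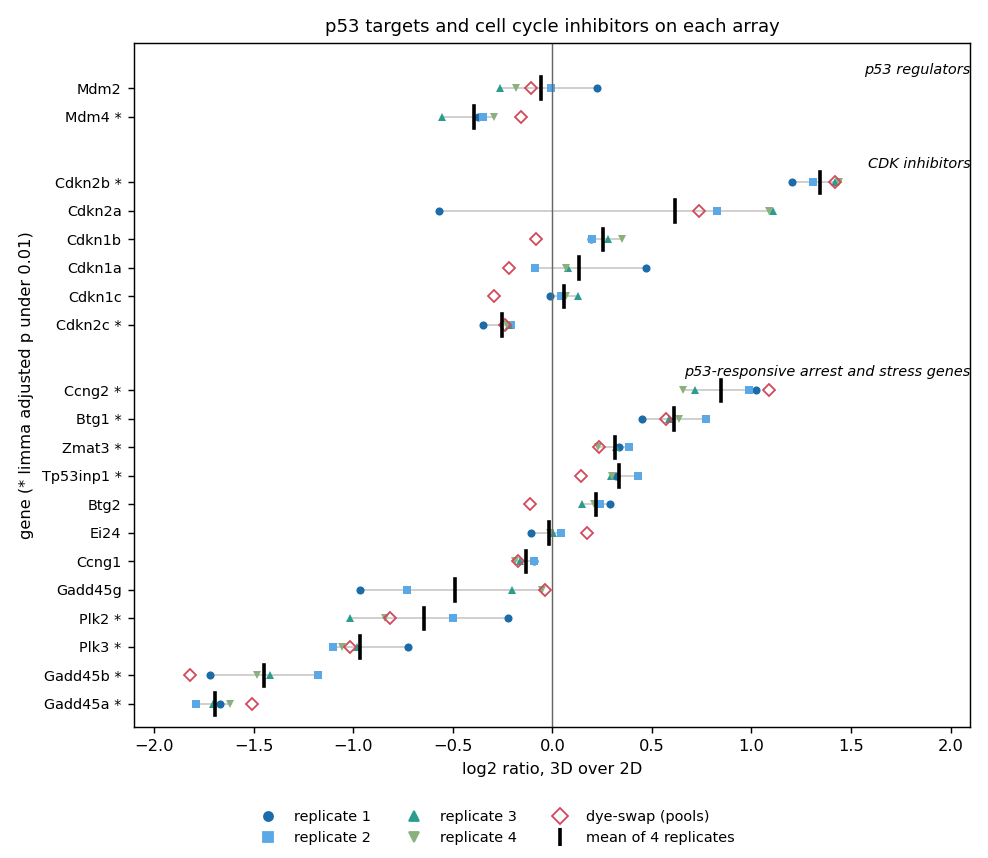
Log2 ratio of 3D over 2D (horizontal axis) for the 20 measured p53 targets, p53 regulators and cell cycle inhibitors, with filled symbols for the 4 replicate arrays, an open diamond for the dye-swap of the pools and a black bar for the mean of the 4 replicates; the grey line spans the replicates, and an asterisk marks a limma adjusted p under 0.01. Gadd45a, Gadd45b and Plk3 lie below 0 and Cdkn2b, Ccng2 and Btg1 above 0 on all 5 arrays, while the arrays of Cdkn1a, Mdm2 and Cdkn2a fall on both sides.

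Of the 2 p53 regulators, Mdm4 fell and Mdm2 was not called. Mdm2, the ubiquitin ligase that marks p53 for breakdown and is itself a p53 target, read 0.22, -0.0081, -0.26 and -0.18 on replicates 1 to 4 and -0.11 on the dye-swap array. Replicate 1 was the array above 0, and the gene was not called (log2 ratio -0.07, 95% CI -0.22 to 0.08, adjusted p = 0.516). A dimmer probe of the same transcript was below 0 on all 5 arrays, with a mean of -0.20 and a limma adjusted p over all probes of 0.009, so the probes of Mdm2 did not give the same call. Mdm4, its relative that blocks p53 without breaking it down, had replicate values of -0.38, -0.35, -0.55 and -0.29 and -0.16 on the dye-swap array. All 5 arrays were below 0, and the fitted ratio was -0.35 ± 0.06 (SE, 5 arrays, adjusted p = 0.000962). Its size grew to -0.73 without the normexp offset (adjusted p = 0.0101) and to -1.05 with the scanner's processed signals.

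Among the 6 genes of cyclin-dependent kinase inhibitors, 1 rose, 1 fell and 4 were not called. Cdkn2b encodes p15INK4b, an inhibitor of Cdk4 and Cdk6 that TGF-beta is known to induce. It read 1.20, 1.31, 1.42 and 1.44 on the replicates and 1.42 on the dye-swap array. The arrays lay close together and far above 0, at 2.56-fold (log2 ratio 1.36 ± 0.05, SE, adjusted p = 8.76e-08), and a second probe averaged 1.16. Cdkn2c encodes p18INK4c of the same family and moved the other way, with -0.35, -0.21, -0.22 and -0.23 on the replicates and -0.24 on the dye-swap array. Its fitted fall was small, at -0.25 ± 0.04 (SE, adjusted p = 0.000975), and it grew to -0.43 without the normexp offset and to -0.44 with the scanner's processed signals.

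Cdkn1a, which encodes p21 and is the main arrest gene of the p53 response, showed no call. It read 0.47, -0.09, 0.08 and 0.07 on the replicates and -0.22 on the dye-swap array. The arrays fell on both sides of 0, with a fitted ratio of 0.06 (95% CI -0.13 to 0.25, adjusted p = 0.645), and the sign turned without replicate 1 (-0.04) and in a model with a dye term (-0.04). A second Cdkn1a probe averaged 0.0044. Cdkn2a, which lies beside Cdkn2b on chromosome 5 with 1 annotated protein-coding gene between them, encodes the inhibitor Ink4a and, in another reading frame, Arf, which acts on Mdm2, and which transcript its 1 probe reads was not determined. It read -0.57, 0.82, 1.11 and 1.09 on the replicates and 0.74 on the dye-swap array. Replicate 1 alone was below 0, the gene was not called (log2 ratio 0.64, adjusted p = 0.0409), and without replicate 1 it was (0.94, adjusted p = 2.97e-05). Cdkn1b (p27) and Cdkn1c (p57) averaged 0.19 and -0.01 and were not called.

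The genes listed here as p53-responsive arrest and stress genes held the largest falls, and of the 12 measured 4 rose, 4 fell and 4 were not called. Whether each of them answers to p53 in these cells was not tested. Gadd45a, which binds Pcna and p21 and acts in arrest and DNA repair, and whose start region above holds a p53 half-site, read -1.67, -1.79, -1.70 and -1.62 on the replicates and -1.51 on the dye-swap array. All 5 arrays lay close together, at 3.16-fold lower in 3D (log2 ratio -1.66 ± 0.05, SE, adjusted p = 3.68e-08). Gadd45b, a paralog known to respond to TGF-beta and NF-kappaB, read -1.72, -1.18, -1.42 and -1.49 on the replicates and -1.82 on the dye-swap array. It was spread more widely and again below 0 on each array (log2 ratio -1.52 ± 0.08, SE, adjusted p = 9.51e-07). The third paralog, Gadd45g, split by replicate, with -0.96 and -0.73 on replicates 1 and 2, -0.20 and -0.05 on replicates 3 and 4 and -0.036 on the dye-swap array, and was not called (log2 ratio -0.40, adjusted p = 0.0426).

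The polo-like kinases Plk2 and Plk3, stress-responsive kinases of the centrosome and the DNA damage response, fell with the Gadd45 genes. Plk3 read -0.73, -1.10, -0.98 and -1.06 on the replicates and -1.02 on the dye-swap array. Replicate 1 was the smallest fall, and the fitted ratio was -0.98 ± 0.06 (SE, adjusted p = 1.38e-06). Plk2 read -0.22, -0.50, -1.01 and -0.84 on the replicates and -0.81 on the dye-swap array. It was less even, with replicate 1 nearest to 0 (log2 ratio -0.68 ± 0.10, SE, adjusted p = 0.00053), and it was not called without the normexp offset.

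In the same group Ccng2, Btg1, Zmat3 and Tp53inp1 rose. Ccng2 is an atypical cyclin found in cells that leave the cycle, and it read 1.02, 0.99, 0.72 and 0.65 on the replicates and 1.09 on the dye-swap array. Each array was above 0.6, for a 1.86-fold rise (log2 ratio 0.89 ± 0.07, SE, adjusted p = 7.3e-06), and a dimmer probe of the same transcript averaged 0.50. Btg1, an antiproliferative protein, read 0.45, 0.77, 0.59 and 0.64 on the replicates and 0.57 on the dye-swap array, again all above 0 (log2 ratio 0.60 ± 0.05, SE, adjusted p = 1.22e-05). Zmat3, a zinc finger protein that binds RNA and is a p53 target, read 0.33, 0.38, 0.32 and 0.23 on the replicates and 0.24 on the dye-swap array (log2 ratio 0.30 ± 0.04, SE, adjusted p = 0.000334). This rise was seen with the brighter of its probes only, since the other averaged -0.0111 and the mean of both was 0.14 and not called. Tp53inp1, a nuclear protein that p53 induces, read 0.32, 0.43, 0.29 and 0.30 on the replicates and 0.14 on the dye-swap array, all above 0 (log2 ratio 0.30 ± 0.05, SE, adjusted p = 0.000842). Zmat3 and Tp53inp1 were not called without the normexp offset, and Ccng1 (-0.14), Btg2 (0.15) and Ei24 (0.02) were not called at all.

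**Figure D2:**
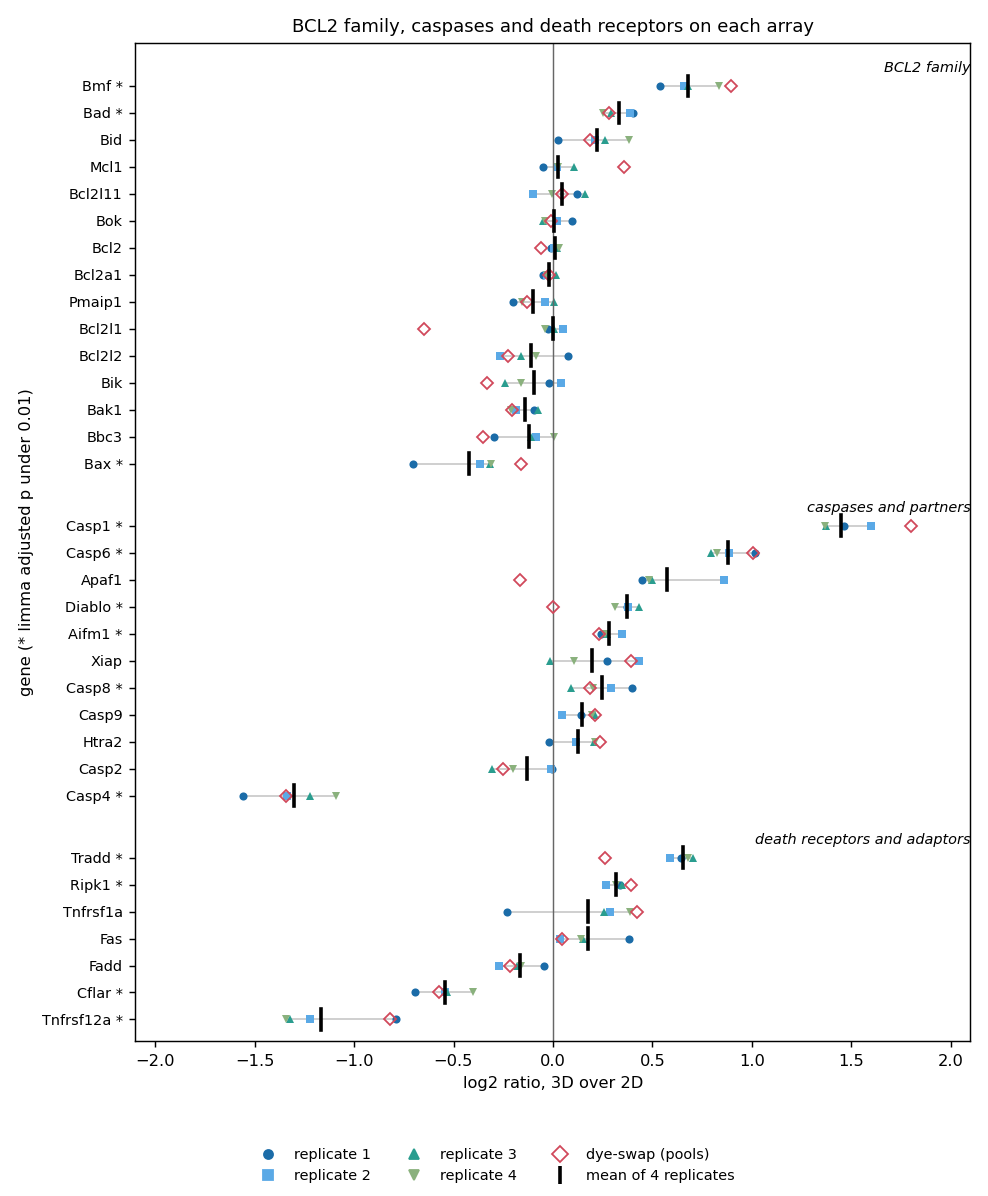
Log2 ratio of 3D over 2D (horizontal axis) for the 33 genes of the BCL2 family, the caspases with their partners and the death receptors with their adaptors, drawn with the same symbols: filled for the 4 replicates, an open diamond for the dye-swap of the pools, a black bar for the replicate mean, a grey line for their span and an asterisk for a limma adjusted p under 0.01. Bcl2, Bcl2a1 and Bcl2l11 were not above background, and Casp1 at 1.52 and Casp4 at -1.31 lie far apart; the dye-swap diamonds of Bcl2l1 and Apaf1 lie away from their replicates.

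In the BCL2 family, 2 of 15 genes were called higher, 1 lower and 12 not at all. The 12 that stood above background had fitted ratios from -0.37 to 0.72. None of the 5 anti-apoptotic members was called by limma, and 1 of them, Bcl2l2, had an unadjusted p under 0.05. The 3 of them above background (Bcl2l1, Bcl2l2 and Mcl1) had fitted ratios of -0.13, -0.13 and 0.09. Neither Bcl2 itself, nor Bcl2a1, nor the BH3-only gene Bcl2l11 rose well above background on any array, so no ratio is read from them (Bcl2 was fitted at -0.0027, adjusted p = 0.971). Mcl1, a short-lived guard of the mitochondrion, read -0.05, 0.018, 0.11 and 0.024 on the replicates and 0.36 on the dye-swap array. The dye-swap array stood above the replicates, and the gene was not called (log2 ratio 0.09, 95% CI -0.04 to 0.23, adjusted p = 0.306), but was in the model with a dye term (0.19, adjusted p = 0.00827).

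Bcl2l1, which encodes BCL-XL, differed between its probes and between the replicates and the dye-swap array. The brightest probe read -0.02, 0.05, 0.0075 and -0.04 on the replicates and -0.65 on the dye-swap array. The replicates sat at 0 and the dye-swap array well below, for a fitted ratio of -0.13 (95% CI -0.34 to 0.08, adjusted p = 0.357) that was not called. The other 3 probes averaged -0.47, -0.26 and -0.19. The gene was called lower in the model with a dye term (-0.32, adjusted p = 0.000249), a term that rests on the single dye-swap array, and in the mean of all probes (-0.26, adjusted p = 0.00667).

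Of the pore-forming members, Bax fell and Bak1 (-0.16) and Bok (0.0041) were not called. Bax, a p53 target that opens the outer mitochondrial membrane, read -0.70, -0.37, -0.31 and -0.31 on the replicates and -0.16 on the dye-swap array. Replicate 1 was far below the other three replicates, and the fitted fall was 1.29-fold (log2 ratio -0.37 ± 0.07, SE, adjusted p = 0.00229). The call was lost without replicate 2 (adjusted p = 0.0114), without the normexp offset, with the scanner's processed signals and with a dye term.

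Of the 7 BH3-only genes, whose products sense damage and bind other BCL2 proteins, Bmf and Bad rose and 5 were not called. Bmf, linked to loss of attachment and to the cytoskeleton, read 0.54, 0.66, 0.68 and 0.84 on the replicates and 0.90 on the dye-swap array (log2 ratio 0.72 ± 0.06, SE, adjusted p = 8.28e-06). It stood well above background in 3D on all 5 arrays and in 2D on none. The 2D side was therefore also set to the lowest signal well above background on each array, or the probe's own signal where higher. Against this the 3D level was 1.62-fold higher, a mean over the arrays without its spread. The fitted ratio of Bmf had a 95% CI of 0.59 to 0.85. Its ratio was 1.81 without the normexp offset and 3.28 with the scanner's processed signals. Bad, which growth factor signalling holds inactive, read 0.40, 0.39, 0.29 and 0.25 on the replicates and 0.28 on the dye-swap array, a narrow range above 0 (log2 ratio 0.32 ± 0.04, SE, adjusted p = 0.000218) that was not called without the normexp offset. The p53 targets Bbc3 (PUMA, -0.17) and Pmaip1 (NOXA, -0.10) were not called, nor were Bid (0.21) and Bik (-0.14), and Pmaip1 stood above background on 1 array only, in 2D.

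Of the 11 caspases and their partners, 5 were called higher and 1 lower, and 9 fitted ratios (81.8%) lay above 0, against 54.2% of all genes above background. Casp8 and Diablo, among the 5, were not called with quantiles over all channels or in the authors' table. The outer values belonged to the inflammatory caspases. Casp1, which matures interleukin-1 beta in the inflammasome, read 1.46, 1.60, 1.37 and 1.37 on the replicates and 1.80 on the dye-swap array. It rose 2.87-fold (log2 ratio 1.52 ± 0.07, SE, adjusted p = 2.27e-07), stood above background in 2D on 4 of 5 arrays, and read 2.41 without the normexp offset and 2.94 with the scanner's processed signals. Casp4, an inflammatory caspase whose mouse and human counterparts sense bacterial lipopolysaccharide inside the cell, read -1.56, -1.34, -1.22 and -1.09 on the replicates and -1.34 on the dye-swap array. It fell 2.48-fold (log2 ratio -1.31 ± 0.06, SE, adjusted p = 4.22e-07), so the pair ran in opposite directions on each array. In the RefSeq annotation Casp1, Casp4 and Casp12 are consecutive protein-coding genes of chromosome 8, and Casp12, singled out after its value was seen, averaged -0.38 (adjusted p = 0.000269).

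Of the caspases that carry out apoptosis, Casp6, an effector that cuts lamins, rose on each array, with 1.02, 0.88, 0.79 and 0.82 on the replicates and 1.00 on the dye-swap array. This was a 1.87-fold rise (log2 ratio 0.90 ± 0.05, SE, adjusted p = 7.27e-07). Casp8, the initiator at death receptors, read 0.40, 0.29, 0.09 and 0.20 on the replicates and 0.19 on the dye-swap array. All were above 0 and the fitted rise was small (log2 ratio 0.23 ± 0.05, SE, adjusted p = 0.00527). Its call held in 7 of 16 alternative processings and was lost without replicate 1 (adjusted p = 0.0206), without replicate 2 (0.0275) and without replicate 4 (0.0191). The initiators Casp9 (0.16) and Casp2 (-0.15) were not called, and the other probes of Casp2 averaged 0.13 and 0.02.

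Among the mitochondrial partners, Diablo and Aifm1 rose. Diablo, which frees caspases from their inhibitors, read 0.37, 0.38, 0.43 and 0.31 on the replicates and -0.0016 on the dye-swap array. The replicates were alike and the dye-swap array at 0 (log2 ratio 0.30 ± 0.06, SE, adjusted p = 0.00448), the dye term brought the ratio to 0.19, and leaving out any 1 replicate ended the call (adjusted p = 0.0199 to 0.0242). Aifm1, a mitochondrial oxidoreductase, read 0.24, 0.35, 0.27 and 0.26 on the replicates and 0.23 on the dye-swap array (log2 ratio 0.27 ± 0.04, SE, adjusted p = 0.00044), and was not called without the normexp offset. Apaf1, the scaffold of the apoptosome, read 0.45, 0.86, 0.50 and 0.48 on the replicates and -0.17 on the dye-swap array. The dye-swap array lay below 0 and the replicates above, and it was not called (log2 ratio 0.42, adjusted p = 0.0177). Without the dye-swap array it was (0.57, adjusted p = 9.89e-05). Xiap (0.24), which blocks caspases, and Htra2 (0.15) were not called.

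At the death receptors, the adaptors Tradd and Ripk1 rose and the receptor Tnfrsf12a and the brake Cflar fell. Tnfrsf12a (Fn14), the receptor for TWEAK, has no death domain of its own, and it read -0.79, -1.22, -1.32 and -1.34 on the replicates and -0.82 on the dye-swap array. All 5 arrays were far below 0, at 2.14-fold lower in 3D (log2 ratio -1.10 ± 0.09, SE, adjusted p = 1e-05). Cflar (c-FLIP), which resembles caspase-8 without its activity and holds it back, read -0.70, -0.54, -0.53 and -0.40 on the replicates and -0.57 on the dye-swap array. Its fall (log2 ratio -0.55 ± 0.05, SE, adjusted p = 1.71e-05) came from a probe of 1 transcript record. A probe of another record averaged 0.07, and the mean of both was -0.24.

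Tradd, the platform protein of TNF receptor 1, read 0.64, 0.59, 0.71 and 0.68 on the replicates and 0.26 on the dye-swap array. All were above 0, with the dye-swap array lowest (log2 ratio 0.58 ± 0.06, SE, adjusted p = 9.09e-05). Ripk1, the kinase that joins it and can steer cells to survival or death, read 0.34, 0.26, 0.35 and 0.32 on the replicates and 0.39 on the dye-swap array, a narrow range (log2 ratio 0.33 ± 0.04, SE, adjusted p = 0.00012). Fas, a death receptor and p53 target, read 0.38, 0.04, 0.15 and 0.14 on the replicates and 0.04 on the dye-swap array. All were above 0, yet it was not called (log2 ratio 0.15, 95% CI 0.03 to 0.27, adjusted p = 0.0645), while the mean of its probes was (0.22, adjusted p = 0.00203). Its adaptor Fadd (-0.17) and TNF receptor 1, Tnfrsf1a (0.22), were not called, and replicate 1 of Tnfrsf1a (-0.23) ran against its other arrays.

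**Figure D3:**
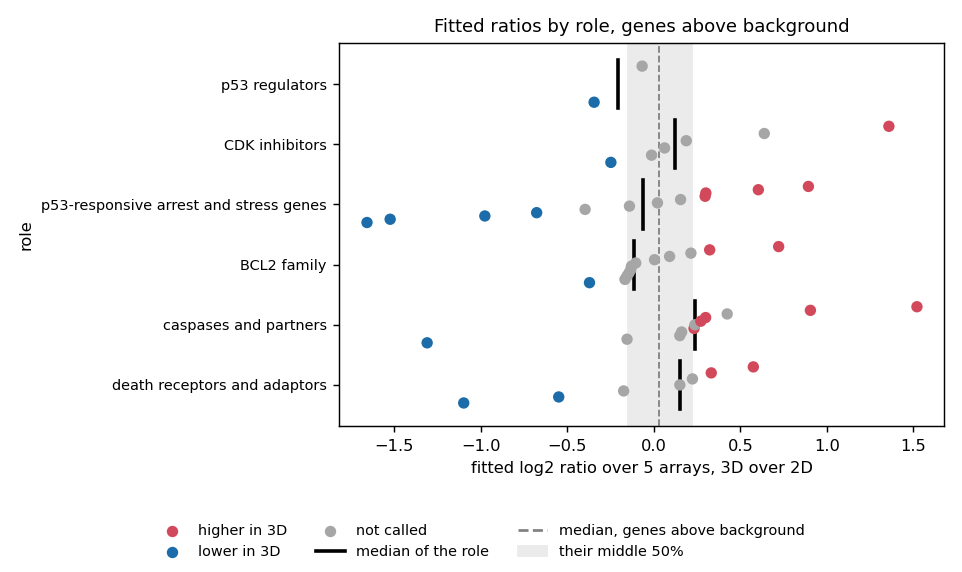
Fitted log2 ratio of 3D over 2D over 5 arrays (horizontal axis) for each of the 50 genes above background by role (vertical axis), in red where called higher, blue where called lower and grey where not called; the black bar is the median of a role, the dashed line the median of the 9015 genes above background and the shaded band their middle 50%. The 12 BCL2 family genes have a median of -0.12 and reach from -0.37 to 0.72, and the arrest and stress genes reach from -1.66 to 0.89.

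Set side by side, calls in the p53 and cell cycle group were split almost evenly between rises and falls. In the processing used here, the apoptosis group had more rises than falls. The largest fall was in the first (Gadd45a, -1.66) and the largest rise in the second (Casp1, 1.52). In the p53 and cell cycle group, 5 of 20 genes rose, 6 fell and 9 were not called, and in the apoptosis group 9 of 33 rose, 4 fell and 20 were not called. Among genes above background that is 55% of 20 and 43.3% of 30 called, beside 43.4% of all such genes. With quantiles over all channels or in the authors' table, Casp8 and Diablo of the apoptosis group were not called. More members were then called lower than higher, so the excess of rises in the apoptosis group depended on the processing. The median size of the fitted ratio, whatever its sign, was 0.32 in the p53 and cell cycle group and 0.23 in the apoptosis group over genes above background, against 0.19 over all such genes. These sizes only describe the lists, which were chosen with earlier results of these data known. The median ratio was 0.0041 in the p53 and cell cycle group, where the falls of the Gadd45 and Plk genes and the rises of Cdkn2b, Ccng2 and Btg1 lay on either side. It was 0.09 in the apoptosis group and 0.0032 over all genes, and over genes above background alone it was 0.15 in the apoptosis group and 0.03 in all. On single arrays the median of the p53 and cell cycle group ran from -0.05 to 0.04 on the replicates and was -0.11 on the dye-swap array, and that of the apoptosis group ran from 0.028 to 0.09 and was -0.0016. The arrays thus did not share a sign for either group, and the difference between the groups was not tested.

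By role, the share called was highest in the arrest and stress genes (8 of 12) and lowest in the BCL2 family (3 of 15, or of 12 above background). It was 2 of 6 in the CDK inhibitors, 1 of 2 in the p53 regulators, 6 of 11 in the caspases and their partners, and 4 of 7 in the death receptors and adaptors. Among all genes above background 43.4% were called. Each role holds few genes, and differences between roles were not tested. Direct p53 targets named above moved in both directions: Gadd45a, Plk2, Plk3 and Bax fell, and Zmat3 and Tp53inp1 rose. Cdkn1a, Mdm2, Ccng1, Btg2, Ei24, Bbc3, Pmaip1 and Fas were not called, and Pmaip1 was close to background. For Mdm2 and Fas this depended on the probe. Their other probes averaged -0.20 and 0.29, with limma adjusted p over all probes of 0.009 and 0.000704. The rise of Zmat3 was seen with the brighter of its probes only, and the call of Bax was lost in several of the alternatives.

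**Figure D4:**
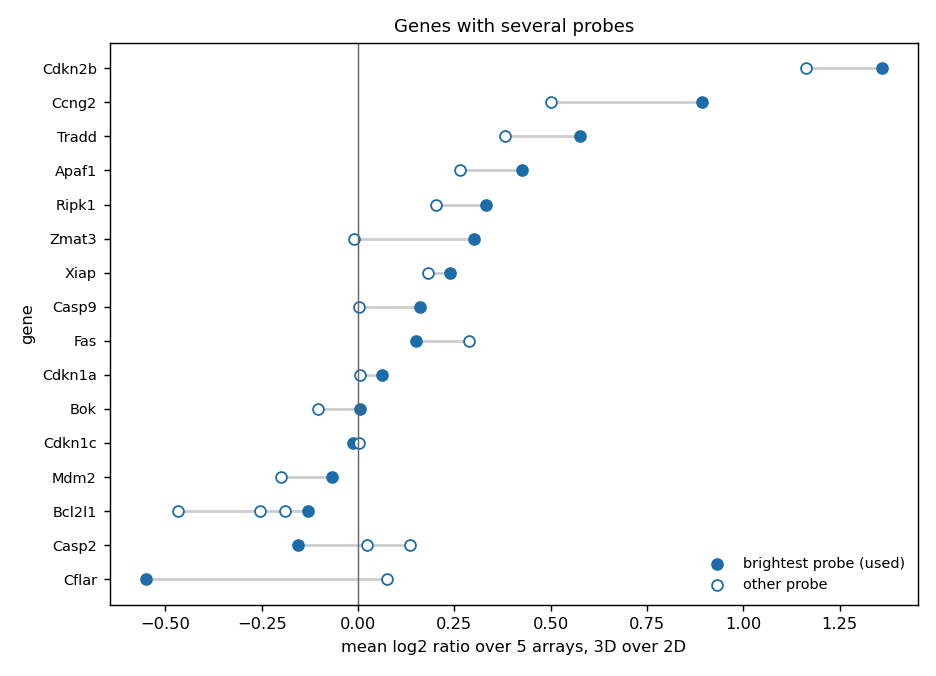
Mean log2 ratio of 3D over 2D over 5 arrays (horizontal axis) for the 16 genes that more than 1 probe read, with a filled circle for the brightest probe, whose value is used here, and open circles for the others. The probes of Cdkn2b and Ccng2 lie on the same side of 0, while those of Cflar and Casp2 lie on both sides and the second probe of Zmat3 lies at 0.

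Other genes of both pathways, beyond the 54, were read in the same fit. Of 32 further p53 pathway genes 26 were measured, 4 were called higher and 6 lower (38.5%). Over all genes 25.9% were called and over genes above background 43.4%, and 22 of the 26 stood above background. Of the sestrins, which restrain growth signalling under stress, the p53 target Sesn2 fell (log2 ratio -1.37, adjusted p = 9.55e-08) and Sesn3 rose (0.63, adjusted p = 1.22e-05). The repair factor Xpc rose (0.52, adjusted p = 6.97e-06), and Pcna, the sliding clamp of DNA replication, fell (-0.62, adjusted p = 4.71e-05). The number called higher was 2 without replicate 1, without replicate 2 or without replicate 3, and 2 with a dye term.

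Of 30 further apoptosis genes 28 were measured, 8 were called higher and 5 lower (46.4%), beside 25.9% of all genes and 43.4% of those above background. Of the 28, 24 stood above background. Birc3, an inhibitor of apoptosis protein that NF-kappaB induces, rose (log2 ratio 1.70, adjusted p = 8.08e-06), from 0.99 on replicate 1 to 2.00 on replicate 3. The death receptor Tnfrsf21 rose as well (1.06, adjusted p = 7.26e-07). Birc5 (survivin), which is made in dividing cells, fell (-1.18, adjusted p = 3.4e-07), as did Bnip3, a mitochondrial BCL2-related protein induced by low oxygen (-1.02, adjusted p = 1.51e-07). All 4 had the same sign on all 5 arrays.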

How the data were processed

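RNA of 3D and 2D FRT cultures had been hybridised by the authors to 5 Agilent rat arrays whose probes were designed on rn4. The deposited spot and background intensities are median pixel values, not normalized, read by Agilent Feature Extraction 10.7.3.1 per the file headers. The deposited processed intensities had been background-subtracted and dye-normalized by that software. The deposited value table holds the authors' log2 ratios, made with normexp, loess and quantiles in limma. All 5 of its columns ran 3D over 2D when checked against the scanner files. Flag columns, used here as 0 or 1, mark outlier, saturated and above-background spots.

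From the median signals (the plan named mean signals, not analysed here), background was corrected by normexp (offset 50, which shrinks ratios of dim genes). Ratios were then normalized by loess, and mean intensities by quantiles. Control spots and outlier spots (1.12% to 1.6% per array) had weight 0, and 0 spots were saturated. R 4.3.3 and limma 3.58.1 fitted the mean ratio over 5 arrays, the sign of the dye-swap turned, with Benjamini-Hochberg adjustment over 15154 genes and a threshold of 0.01. The fit was also run on simulated independent ratios with known changes. These ratios left out the shared pools, so that run cannot check their effect on the fit. Of 30367 probes, 17998 (59.3%) matched a symbol of RefSeq (GRCr8) by accession, and 2605 genes had several probes. The number of arrays limits the precision. The replicates are separate 3D cultures, and the 2D cultures were pooled.

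The members and lists were chosen with earlier results of these data known. Every called gene is named with values, as are Cdkn1a, Mdm2, Bax, Bcl2, Bcl2l1, Mcl1, Casp8 and Fas. Gadd45g, Cdkn2a, Apaf1 and Casp12 were given values after these were seen. Of the further genes, the 2 largest rises and falls are named. The lists of further p53 pathway genes, further apoptosis genes and cell type markers came from general knowledge. The 16 alternatives tried are in the closing section, and their use on the further genes was added after seeing the data.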

Additional observations from a re-analysis of the deposited data

Results flagged for a closer look

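In 4 of the 53 genes (7.55%) 1 of the 4 replicates stood far from the other three by Dixon's test of the gap over the range, which chance passes in about 1 in 20 groups. Replicate 1 was the distant array in 3 of them: Cdkn2a at -0.567, where the others lay between 0.82 and 1.11, Cdkn2c at -0.3506, where they lay between -0.23 and -0.21, and Bax at -0.7039, where they lay between -0.37 and -0.31. In Apaf1 it was replicate 2, at 0.858, with the others between 0.45 and 0.50.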

How the results depend on the processing

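Of 16 alternatives, an intensity trend with a robust prior, genes above background only and no dye-swap array kept all 24 calls and their direction. A threshold of 0.05 and no between-array normalization, which leaves the ratios as they were, could lose no call. Centring arrays on their median in place of loess ended every call (members, further p53 and further apoptosis genes: 0 higher and 0 lower; all genes with unadjusted p under 0.05: 3096). It moved the median of the p53 and cell cycle group to 0.4456 and of the apoptosis group to 0.4549, and turned the sign of Bax (0.1533), Bcl2l1 (0.3551), Casp12 (0.1216), Gadd45g (0.1094) and Mdm2 (0.4726); the cause was not tested. Bcl2 turned to 0.0009 with quantiles over all channels, 0.0017 in the authors' table and 0.0115 without the dye-swap array, and Cdkn1a to -0.0427 with a dye term and -0.0389 without replicate 1 (up to 0.1003 without another replicate).

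Without the normexp offset 8 members were higher; 9 calls were lost (Aifm1, Bad, Bax, Casp8, Diablo, Mdm4, Plk2, Tp53inp1, Zmat3), and the further genes gave 2 higher and 3 lower (p53) and 5 higher and 3 lower (apoptosis). All genes called were then 1181 higher and 1041 lower, against 2183 and 1735. The scanner's processed signals gave 2 further p53 and 5 further apoptosis genes higher, a dye term 2 further p53 genes higher, and the threshold of 0.05 gave 8 further apoptosis genes lower. The apoptosis median was 0.1365 with processed signals, 0.1459 without the offset, 0.1504 above background only, 0.0514 with quantiles over all channels, 0.0517 in the authors' table and 0.0445 without the dye-swap array; the p53 median was -0.0627 with a dye term.

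Leaving out 1 replicate gave 12 to 15 members higher, 9 to 11 lower, medians of -0.0259 to 0.0032 (p53) and 0.0877 to 0.1097 (apoptosis), and 2 to 3 higher and 4 to 5 lower further p53 genes. Ratios of dim genes are limited by the background correction: 4 called members (Mdm4, Cdkn2c, Bmf and Casp1) moved over 1.5 times without the offset. No paired analysis was possible because the 2D cultures were pooled.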

Other observations

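Replicate 1 gave the highest or lowest replicate value in 39 of the 53 genes (73.6%), against 57% of all genes and 62.2% of those above background. For replicates 2, 3 and 4 the number was 22, 22 and 23. In 8 of the 53 genes the sign of replicate 1 was opposite to that of the other three replicates, and in 6 the dye-swap array was opposite in sign to the fitted ratio.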
